A study of Mus musculus with 12 samples.

Results

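NF-kappaB is a family of transcription factors that dimerise from the subunits encoded by Nfkb1, Nfkb2, Rela, Relb and Rel. In resting cells the dimers are held in the cytoplasm by IkB proteins, and DNA breaks or inflammatory ligands can release them through the IkB kinase complex. Several of the genes they switch on, such as Nfkbia and Tnfaip3, then limit the same response. The genes described here are 10 listed NF-kappaB subunits and feedback genes (Nfkb1, Nfkb2, Rela, Relb, Nfkbia, Nfkbiz, Bcl3, Tnfaip3, Birc3 and Icam1), matched to the Ensembl identifiers by mouse gene symbol, out of 37991 genes counted and 15327 tested. All 10 were found and all 10 passed the filter on low counts. These genes and the lists used below were chosen with earlier results of these data known. Counts and medians set beside all tested genes are therefore descriptions only.

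RNA was sequenced from primary mouse embryonic fibroblasts (MEFs) of strain FVB at passage 3, in 12 samples that form 4 groups of 3. The groups were wild-type or homozygous E2f1 3KR, a knock-in allele in which the acetylated lysines of E2F1 are replaced with arginines, and each genotype was either untreated or given neocarzinostatin (NCS), a drug that breaks DNA much as ionizing radiation does, at 250 ng/ml for 3 h. The labels do not say which samples came from separate embryos, so p-values measure the spread between these samples, which may in part be technical. The samples held 33203757 to 45279321 counted reads each, so that a floor of 3 reads lay at 0.0663 to 0.0904 CPM (counts scaled to equal totals), for counting error only. The 10 genes together held 0.0356% to 0.0453% of a sample's counts.

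Some features of the samples bear on every comparison of genotypes. Normalized counts of Xist, the RNA that coats the silenced X chromosome, were 32.3 to 62.5 in wild-type MEFs and 30590 to 35630 in 3KR MEFs. Those of the Y-linked Ddx3y were 5370 to 5822 in wild-type and 7.00 to 16.2 in 3KR MEFs, so sex and genotype cannot be told apart. E2f1 itself was at 1146 ± 133 and 1237 ± 56.1 normalized counts (SD, n = 3 each) in untreated and NCS-treated wild-type MEFs, and at 1121 ± 9.31 and 1223 ± 49.2 (SD, n = 3 each) in 3KR MEFs. A gene count cannot show the point changes in the allele. Wild-type replicate 3 stood apart in both treatments, where its mean chi-square over genes against the samples of its own group was 7.57 to 9.37, while all other pairs of replicates were at 2.03 to 2.34.

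Markers of fibroblasts and of macrophages were both measured. Summed over 10 fibroblast markers, normalized counts were 2.20e+06 ± 46000 in untreated wild-type MEFs and 2.37e+06 ± 33200 in untreated 3KR MEFs (SD, n = 3 each), with Col1a1 the most abundant. A sum of this kind follows its most abundant genes. By edgeR, 8 of the 10 were higher in untreated 3KR MEFs (22.1% of all tested genes) and 2, Fn1 and Vim, were lower (23.6%). Pdgfra was at 4768 ± 138 and 15190 ± 21.4 normalized counts in untreated wild-type and 3KR MEFs and Fn1 at 564100 ± 18400 and 443400 ± 1130 (SD, n = 3 each), these genes being named after their values were seen. After NCS 7 of the 10 were higher and 2 lower in 3KR MEFs, beside 22.9% and 23.6% of all tested genes. NCS left 5 of the 10 higher and 1 lower in wild-type MEFs (beside 14.3% and 12.4%) and 1 higher and 6 lower in 3KR MEFs (beside 15.8% and 15.0%). The response in 3KR MEFs was lower for 5 by edgeR, 4 to 7 over the 18 alternatives, beside 1.87% of all tested genes, and higher for 0, with 1 at an unadjusted p under 0.05 and 0 by DESeq2. The 12 macrophage markers summed to 4799, 5373 and 5421 in the untreated wild-type samples and to 9648, 9723 and 9798 in the untreated 3KR samples. After NCS the macrophage sums were 5170 to 5873 in wild-type and 8890 to 9397 in 3KR MEFs. Lyz2 was the most abundant of them, no macrophage marker was at or under 3 counts in every sample, and the defining leukocyte gene Ptprc was at 60.1 ± 4.81 in untreated wild-type and 190.0 ± 12.6 in untreated 3KR MEFs (SD, n = 3 each). Of these 12 markers, 12 were higher in 3KR MEFs without treatment and 11 after NCS by edgeR, beside 22.1% and 22.9% of all tested genes. Fewer cells of a type and less RNA per cell cannot be told apart in such bulk samples, and the part of macrophage RNA in the values below was not tested.

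Measured per length of gene (RPKM, here the CPM on totals scaled by TMM, divided by the exon length in kilobases from GENCODE M21), the level of Rela was highest of the 10 genes in every group, at 25.8 ± 0.934 RPKM in untreated wild-type MEFs (SD, n = 3). Rela encodes p65, the subunit with the main transactivation domain. Nfkbia, encoding the inhibitor IkB alpha, followed at 16.6 ± 0.87 RPKM, and Nfkb2, encoding the p100 precursor of p52, at 12.7 ± 0.0751 RPKM (SD, n = 3 each). These 3 genes kept that order in all 4 groups. Nfkbiz, Relb and Nfkb1 came next in untreated wild-type MEFs at 6.91 ± 0.456, 6.87 ± 0.686 and 6.82 ± 0.309 RPKM (SD, n = 3 each), which did not differ beyond their spread. Bcl3 was at 5.18 ± 0.153 RPKM, Birc3 and Tnfaip3 were within their spread of each other at 2.85 ± 0.223 and 2.56 ± 0.125 RPKM, and Icam1 was last of the 10 at 1.70 ± 0.139 RPKM (SD, n = 3 each). Rel, the subunit best known from lymphocytes, was lower than any of the 10 genes in each group, at 0.66 to 0.827 RPKM.

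The middle of this order differed between groups. In untreated 3KR MEFs the level of Bcl3 was 8.46 ± 0.446 RPKM, next to Nfkb1 at 8.36 ± 0.176 RPKM and within its spread, and both lay above Relb and Nfkbiz. After NCS, Bcl3 reached 12.3 ± 0.406 RPKM in 3KR MEFs (SD, n = 3), behind only Rela, Nfkbia and Nfkb2. Tnfaip3 was the lowest of the 10 in 3KR MEFs, at 1.07 ± 0.0482 RPKM untreated and 1.34 ± 0.149 RPKM after NCS (SD, n = 3 each). Icam1 moved above Birc3 after NCS in both genotypes.

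**Figure D1:**
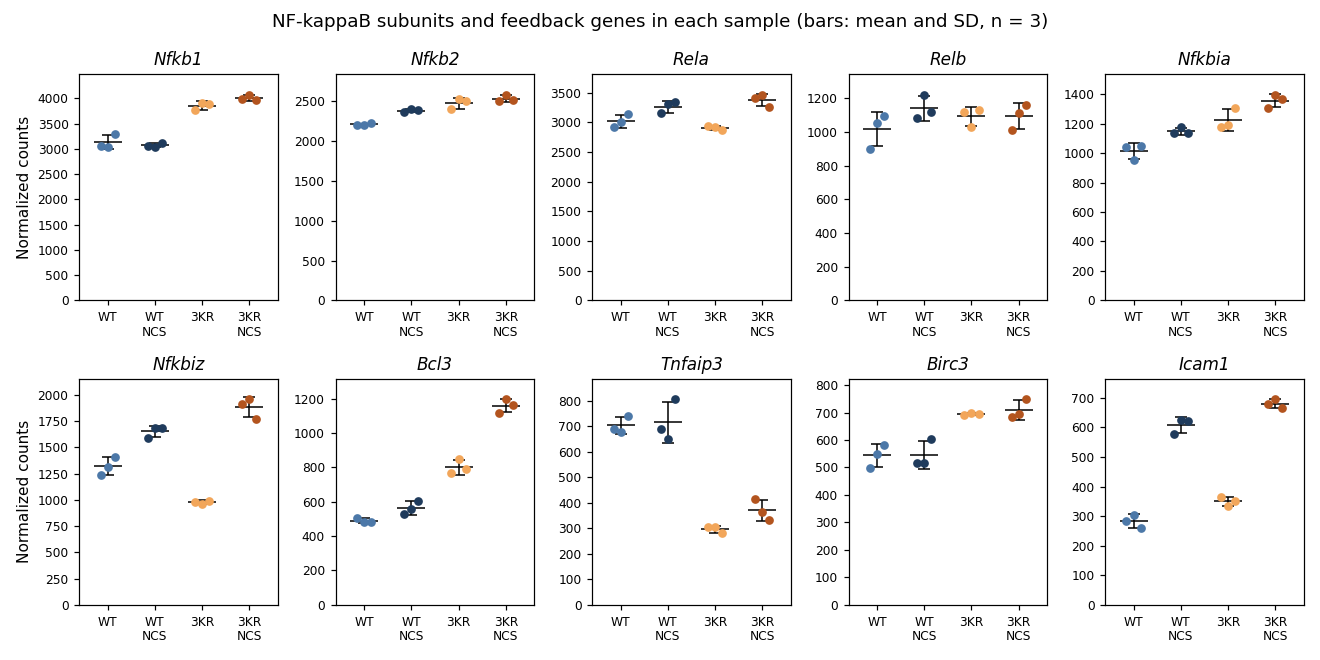
Normalized counts (vertical axes, starting at 0) of each of the 10 genes in the 12 samples, by group (horizontal axes). Points are samples, and the bars mark the mean and SD of 3 samples. Icam1 lies at 258.7 to 363.8 in untreated and 577.1 to 695.4 in NCS-treated samples, and Tnfaip3 lies at 649.0 to 806.0 in wild-type and 281.0 to 415.2 in 3KR samples.

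The first comparison asked what 3 h of NCS does in wild-type MEFs. Icam1, the adhesion molecule that binds leukocyte integrins, had 283.3, 305.4 and 258.7 normalized counts in the untreated wild-type samples and 577.1, 624.2 and 620.9 after NCS. Every treated sample lay above every untreated sample, and the factor fitted by edgeR was 2.14. Its log2 fold change was 1.10 (SE 0.0715, edgeR FDR = 3.89e-11), where SE is the standard error and FDR is the p-value of the quasi-likelihood test of edgeR, adjusted over all 15327 genes by Benjamini-Hochberg and read at 0.05. In the same samples, the p53 targets Cdkn1a and Mdm2 had log2 fold changes of 1.18 (edgeR FDR = 1.32e-18) and 0.84 (edgeR FDR = 4.62e-14), and 13 of 16 listed p53 targets were higher and 1, Sesn1, named after its value was seen, was lower, beside 14.3% and 12.4% of all tested genes.

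The 3 genes of the IkB family among the 10 were each higher after NCS in wild-type MEFs, while Nfkbib, Nfkbie and Nfkbid, further genes of that family, did not pass, at -0.07, -0.05 and -0.04 on the log2 scale (edgeR FDR = 0.445, 0.779 and 0.925), the first and last named after their values were seen. Nfkbiz, encoding the nuclear IkB zeta that acts as a co-factor of p50 dimers, had 1238, 1314 and 1411 normalized counts without treatment and 1591, 1684 and 1684 with it. The groups did not overlap, and the log2 fold change was 0.32 (SE 0.0511, edgeR FDR = 4.09e-05). Nfkbia went from 1015 ± 52.4 to 1150 ± 23.3 normalized counts (SD, n = 3 each), and the log2 fold change was 0.18 (SE 0.0536, edgeR FDR = 0.0165). Bcl3, encoding another nuclear IkB protein that binds p50 and p52 homodimers, went from 488.8 ± 14.3 to 563.0 ± 38.7 (SD, n = 3 each), and the log2 fold change was 0.20 (SE 0.0647, edgeR FDR = 0.0251).

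Changes of the subunits in wild-type MEFs were small. Nfkb2 had a log2 fold change of 0.11 (SE 0.036, edgeR FDR = 0.0317), and Rela had the same value of 0.11 (SE 0.037, edgeR FDR = 0.0289). For both genes the treated and untreated samples did not overlap. Relb, the partner of p52 in the non-canonical branch, overlapped between treatments and had a log2 fold change of 0.17 (SE 0.0685, edgeR FDR = 0.0753). Nfkb1 was at 3131 ± 140 and 3071 ± 39.3 normalized counts (SD, n = 3 each), with no difference past the threshold. The same held for Tnfaip3, encoding the ubiquitin-editing enzyme A20, and Birc3, encoding the ubiquitin ligase cIAP2. Their log2 fold changes were 0.02 and 0.00, with approximate 95% intervals of -0.13 to 0.17 and -0.14 to 0.14.

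In all, 6 of the 10 genes were higher after NCS in wild-type MEFs and 0 were lower by edgeR, with 0 lower at an unadjusted p under 0.05 and 0 by DESeq2, beside 14.3% of all tested genes higher and 12.4% lower. The median log2 fold change of the 10 was 0.14, against 0.005 over all tested genes. Of the calls, those of Icam1 and Nfkbiz held under all 13 alternatives, and these 2 were the ones left when only wild-type samples entered the fit. Samples of the same number were taken as pairs in wild-type MEFs, although the data could match only replicate 3. With the replicate as a block Relb passed the threshold as well (edgeR FDR = 0.0166, from 0.00263 to 0.43 in the 13 alternatives). Relb also passed with no filter on low counts (edgeR FDR = 0.0283), without untreated replicate 3 (edgeR FDR = 0.0135) and, in an alternative chosen after seeing the data, without wild-type replicate 3 of both treatments (log2 fold change 0.24, edgeR FDR = 0.00263). Its log2 fold change fell to 0.08 without untreated replicate 1 (edgeR FDR = 0.43) and 0.11 without NCS replicate 2 (edgeR FDR = 0.319). Nfkb2 lost its call with no filter (edgeR FDR = 0.0939) and when any wild-type library other than untreated replicate 3 was left out (edgeR FDR 0.0501 to 0.0968, within 0.0103 to 0.126 over the alternatives). Rela lost it without untreated replicate 1, untreated replicate 2, NCS replicate 2 or NCS replicate 3 (edgeR FDR = 0.147, 0.0827, 0.0973 and 0.0878, within 0.00303 to 0.147). The call of Nfkbia ended without untreated replicate 2 or NCS replicate 2 (edgeR FDR = 0.104 and 0.0698, within 0.00426 to 0.104). That of Bcl3 ended without untreated replicate 2, untreated replicate 3, NCS replicate 3 or replicate 3 of both treatments (edgeR FDR = 0.0767, 0.0523, 0.136 and 0.204, within 0.0166 to 0.204). Only 2 of the 10 genes were called without untreated replicate 2, and 3 without NCS replicate 2 or NCS replicate 3.

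The same treatment was then compared within 3KR MEFs. Icam1 had 363.8, 334.9 and 351.0 normalized counts without treatment and 678.5, 695.4 and 665.8 after NCS. Again no treated sample overlapped an untreated one, and the log2 fold change was 0.96 (SE 0.0695, edgeR FDR = 2.17e-10). Nfkbiz had 978.5, 957.8 and 992.9 normalized counts untreated and 1912, 1958 and 1772 after NCS. The treated level was 1.93 times the untreated level, with a log2 fold change of 0.95 (SE 0.0526, edgeR FDR = 2.41e-12). Bcl3 had 764.9, 847.6 and 790.1 normalized counts untreated and 1119, 1197 and 1164 treated, again without overlap, and a log2 fold change of 0.54 (SE 0.0576, edgeR FDR = 1.37e-07).

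Rela, Nfkbia and Tnfaip3 were also higher after NCS in 3KR MEFs. Rela went from 2909 ± 35.2 to 3378 ± 102 normalized counts (SD, n = 3 each), and the log2 fold change was 0.22 (edgeR FDR = 8.17e-05). Tnfaip3 had 303.3, 304.7 and 281.0 normalized counts untreated and 415.2, 364.0 and 334.0 treated, a log2 fold change of 0.33 (edgeR FDR = 0.00966). All treated samples were above all untreated samples, but the treated samples were spread widely. Nfkbia had a log2 fold change of 0.15 (edgeR FDR = 0.0347), with overlapping groups. Nfkb1, Nfkb2, Relb and Birc3 had log2 fold changes of 0.06, 0.03, 0.00 and 0.03, which did not pass the threshold.

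Thus 6 of the 10 genes were higher and 0 lower by edgeR with NCS in 3KR MEFs (0 lower also at an unadjusted p under 0.05 and by DESeq2), beside 15.8% of all tested genes higher and 15.0% lower. The median of the 10 log2 fold changes was 0.18, and that of all tested genes was -0.001. Of the 16 p53 targets, 14 were higher and 1, again Sesn1, was lower in this comparison. Nfkbia lost its call with no filter on low counts (edgeR FDR = 0.0548) and without untreated replicate 1, untreated replicate 2, NCS replicate 2 or NCS replicate 3 of the 3KR samples (edgeR FDR = 0.151, 0.132, 0.127 and 0.0943, within 0.00741 to 0.151 over 12 alternatives). Tnfaip3 lost it without untreated replicate 3 or NCS replicate 1 (edgeR FDR = 0.0526 and 0.0939, from 0.00137 to 0.0939 in the 12 alternatives).

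Whether the response differed between the genotypes was tested as the difference of the log2 fold changes, 3KR minus wild-type. Nfkbiz differed by 0.62 (SE 0.0734, edgeR FDR = 1.29e-05): untreated 3KR samples lay below every untreated wild-type sample, while NCS-treated 3KR samples lay above every NCS-treated wild-type sample. Bcl3 differed by 0.34 (SE 0.0867, edgeR FDR = 0.0279), starting higher in 3KR MEFs and rising more. The remaining 8 genes did not pass. Tnfaip3 had a difference of 0.31 (approximate 95% interval 0.07 to 0.55, edgeR FDR = 0.188). Rela had one of 0.11 (approximate 95% interval 0.004 to 0.21, edgeR FDR = 0.316), and Icam1 one of -0.14 (approximate 95% interval -0.34 to 0.06, edgeR FDR = 0.529). The interval of Rela left out 0 although its unadjusted edgeR p was 0.0534, since the intervals use the normal quantile and the test does not.

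By edgeR, 2 of the 10 genes thus had a higher response in 3KR MEFs and 0 a lower one, with 0 lower at an unadjusted p under 0.05 and 0 by DESeq2, beside 1.86% of all tested genes higher and 1.87% lower. The median difference of the 10 genes was 0.06 on the log2 scale, against 0.004 over all tested genes. Of the 16 p53 targets, 6 had a higher response in 3KR MEFs by edgeR (3 to 7 over the 18 alternatives) and 0 a lower one, with 0 lower at an unadjusted p under 0.05 and 0 by DESeq2. Cdkn1a was among the 6, at 0.16 (edgeR FDR = 0.0189), and lost its call in 4 of the 12 fits without a library (edgeR FDR up to 0.0679, from 4.17e-05 to 0.0679 in the 18 alternatives). Over all genes, 572 were called, and 1379 with the replicate as a block. The call of Nfkbiz held in all 18 alternatives, with differences of 0.57 to 0.67. That of Bcl3 was lost without wild-type untreated replicate 1, wild-type NCS replicate 1 or 2, 3KR untreated replicate 1 or 3, or 3KR NCS replicate 2 or 3 (edgeR FDR 0.0653 to 0.0894, from 0.00138 to 0.0894 in the 18 alternatives). Tnfaip3 passed without wild-type NCS replicate 3 (edgeR FDR = 0.0382) and without wild-type replicate 3 of both treatments (log2 difference 0.36, edgeR FDR = 0.0248, from 0.0248 to 0.453 in the alternatives), and its difference fell to 0.22 without 3KR NCS replicate 1 (edgeR FDR = 0.453). The number of all genes called was 1842 without wild-type replicate 3 of both treatments, an alternative chosen after seeing the data, and 1159 without wild-type untreated replicate 3. It fell to 361 without wild-type NCS replicate 1, 357 and 345 without 3KR untreated replicate 1 and 3, and 346 and 374 without 3KR NCS replicate 1 and 3.

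**Figure D2:**
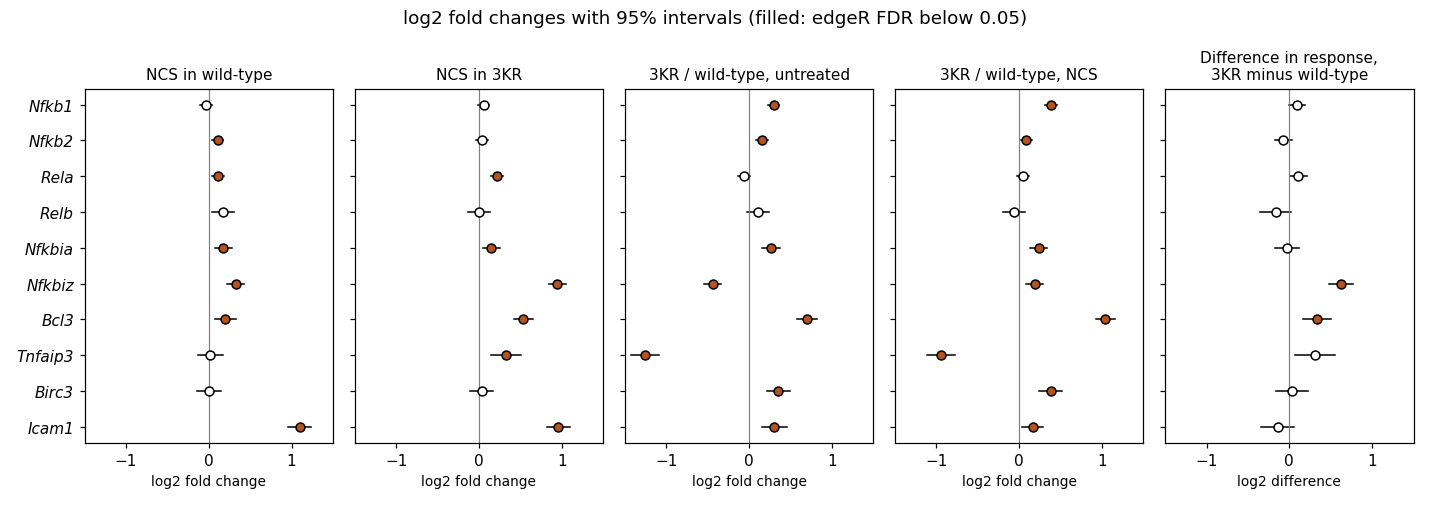
Log2 fold changes of the 10 genes (horizontal axes) in the comparisons named above each panel. Lines are approximate 95% intervals from the standard error and the normal quantile, which can be narrower than the edgeR test implies. Filled points passed an edgeR FDR of 0.05 and open points did not. Tnfaip3 lies at -1.25 and -0.94 in the panels that compare genotypes, and Nfkbiz at -0.44 without treatment and 0.19 after NCS.

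The genotypes were compared next, first without treatment. Tnfaip3 had the largest difference of the 10 genes, with 689.3, 678.7 and 742.0 normalized counts in wild-type and 303.3, 304.7 and 281.0 in 3KR MEFs. No sample of one genotype overlapped the other, and the level in 3KR MEFs fitted by edgeR was 0.419 times that of wild-type MEFs. The log2 fold change was -1.25 (SE 0.0862, edgeR FDR = 1.90e-11). Bcl3 went the other way, from 505.4, 480.9 and 480.2 normalized counts in wild-type to 764.9, 847.6 and 790.1 in 3KR MEFs. Its log2 fold change was 0.70 (SE 0.0623, edgeR FDR = 1.66e-09). Nfkbiz was lower in 3KR MEFs, with a log2 fold change of -0.44 (SE 0.0535, edgeR FDR = 3.31e-07).

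Among the subunits, Nfkb1, which encodes the p105 precursor of p50, had 3059, 3042 and 3292 normalized counts in untreated wild-type and 3764, 3917 and 3892 in untreated 3KR MEFs. The groups were fully apart, with a log2 fold change of 0.30 (SE 0.0357, edgeR FDR = 2.78e-07). Nfkb2 was higher by a log2 fold change of 0.16 (edgeR FDR = 0.000815), while Rela at -0.06 (edgeR FDR = 0.212) and Relb at 0.10 (edgeR FDR = 0.233) did not pass. Birc3 had 498.7, 550.9 and 582.7 normalized counts in wild-type and 692.3, 696.8 and 696.5 in 3KR MEFs, a log2 fold change of 0.35 (SE 0.0699, edgeR FDR = 0.000213). The 3KR samples of Birc3 were nearly identical and lay above all wild-type samples. Nfkbia and Icam1 were also higher, with log2 fold changes of 0.27 (edgeR FDR = 0.000241) and 0.30 (edgeR FDR = 0.0022).

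Of the 10 genes, 6 were higher and 2 lower in untreated 3KR MEFs, beside 22.1% of all tested genes higher and 23.6% lower. Their median log2 fold change was 0.21, and that of all tested genes was 0. All 8 calls held in each of the 13 alternatives. The p53 targets were mostly lower in the same comparison, 12 of 16 against 1 higher by edgeR, with Cdkn1a at -0.83 on the log2 scale (edgeR FDR = 2.86e-17). After NCS 11 of the 16 were lower and 1 was higher, beside 23.6% and 22.9% of all tested genes. Relb passed without wild-type replicate 3 of both treatments (log2 fold change 0.17, edgeR FDR = 0.0163, from 0.0163 to 0.837 in the alternatives), and fell to 0.02 without wild-type untreated replicate 1 (edgeR FDR = 0.837).

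After NCS the difference between genotypes was widest for Bcl3, with 528.9, 555.0 and 605.0 normalized counts in wild-type and 1119, 1197 and 1164 in 3KR MEFs. This was 2.06 times the wild-type level, with a log2 fold change of 1.04 (SE 0.0599, edgeR FDR = 7.96e-13). Tnfaip3 was lower, with 689.8, 649.0 and 806.0 normalized counts in wild-type and 415.2, 364.0 and 334.0 in 3KR MEFs, a log2 fold change of -0.94 (SE 0.0845, edgeR FDR = 2.33e-09). Both genes were fully apart between genotypes. Nfkb1 at 0.39 (edgeR FDR = 4.47e-09), Birc3 at 0.38 (edgeR FDR = 9.86e-05) and Nfkbia at 0.24 (edgeR FDR = 0.000694) were higher on the log2 scale. Nfkbiz, lower in untreated 3KR MEFs, was higher after NCS at 0.19 (edgeR FDR = 0.004). Icam1 at 0.16 (edgeR FDR = 0.0461) and Nfkb2 at 0.09 (edgeR FDR = 0.0497) only just passed, and Rela at 0.05 and Relb at -0.06 did not.

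So 7 of the 10 genes were higher and 1, Tnfaip3, was lower in 3KR MEFs after NCS, beside 22.9% of all tested genes higher and 23.6% lower. The median of the 10 was 0.17, against 0.004 over all tested genes. The comparisons within and between genotypes share samples, so they do not count as separate evidence. The call of Nfkb2 was lost with each of the 6 libraries left out (edgeR FDR 0.0584 to 0.155), with no filter (edgeR FDR = 0.097), with DESeq2 (adjusted p = 0.0873) and with the size factors of DESeq2 in edgeR (FDR = 0.0504), from 0.0245 to 0.155 in the 13 alternatives. That of Icam1 was lost with DESeq2 (adjusted p = 0.114), with no filter (edgeR FDR = 0.0799), with the replicate as a block (edgeR FDR = 0.0501) and with each library left out but wild-type NCS replicate 3 (edgeR FDR 0.0556 to 0.169, from 0.0328 to 0.169 in the alternatives).

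The surrounding pathway was described from a list of 80 other genes, of which 79 were in the files and 73 were tested. NCS in wild-type MEFs left 11 of the 73 higher and 9 lower by edgeR, beside 14.3% and 12.4% of all tested genes, and in 3KR MEFs 10 higher and 17 lower, beside 15.8% and 15.0%. In untreated MEFs 25 were higher and 13 lower in 3KR, beside 22.1% and 23.6%, and after NCS 24 were higher and 18 lower, beside 22.9% and 23.6%. The median log2 fold changes of the list were -0.02, 0.01, 0.06 and 0.05 in these comparisons. For the difference in response 0 were higher by edgeR, with 6 at an unadjusted p under 0.05 and 0 by DESeq2. By edgeR 2 had a lower response in 3KR MEFs, Irak3 at -0.70 (FDR = 0.026) and Tlr2 at -0.66 (FDR = 0.0392), named after their values were seen, beside 1.86% of all tested genes higher and 1.87% lower. Single libraries ended the calls of Irak3 in 7 and of Tlr2 in 9 of the 12 fits without a library (edgeR FDR up to 0.09 and 0.0976). With the replicate as a block 6 genes of the list were called, 3 higher and 3 lower. Without wild-type replicate 3 of both treatments 10 were called, 3 higher and 7 lower. With a library left out edgeR called 0 to 5, and in the 5 fits with 0 called, 7 to 17 genes had an unadjusted p under 0.05 and DESeq2 on the same samples called 0 to 1. Of 13 tested receptors, 10 were higher in untreated 3KR MEFs and 1 was lower by edgeR, beside 22.1% and 23.6% of all tested genes. Il1r1, the signalling receptor for interleukin 1, had 2388 ± 57.2 normalized counts in untreated wild-type and 4980 ± 101 in untreated 3KR MEFs (SD, n = 3 each), and the log2 fold change was 1.05 (edgeR FDR = 1.99e-17). Tnfrsf12a, the receptor for the cytokine TWEAK, was the 1 that was lower, at -0.67 (edgeR FDR = 3.36e-13). With NCS in wild-type MEFs Il1r1 and Tnfrsf12a were both higher, at 0.30 (edgeR FDR = 7.22e-07) and 0.31 (edgeR FDR = 7.65e-07). In 3KR MEFs NCS left 2 of the 13 receptors higher and 6 lower by edgeR, beside 15.8% and 15.0% of all tested genes. The lower ones numbered 4 to 6 over the 12 alternatives.

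Ripk2, the adaptor kinase of the NOD receptors, was lower in untreated 3KR MEFs, at 1487 ± 50.3 against 3152 ± 110 normalized counts (SD, n = 3 each), and the log2 fold change was -1.09 (edgeR FDR = 1.56e-15). It was also lower after NCS in wild-type MEFs, at -0.36 (edgeR FDR = 9.89e-07). Bcl10, the adaptor between CARD proteins and the IkB kinases, had a log2 fold change of -0.35 between untreated genotypes (edgeR FDR = 4.60e-07) and 0.34 with NCS in wild-type MEFs (edgeR FDR = 2.24e-06). Among the kinases, Map3k14, which encodes the NF-kappaB-inducing kinase of the non-canonical branch, was higher in untreated 3KR MEFs at 0.39 (edgeR FDR = 4.33e-06), and Map3k7, encoding TAK1, was lower at -0.17 (edgeR FDR = 4.96e-05). With NCS in wild-type MEFs Map3k7 was higher at 0.29 (edgeR FDR = 1.23e-07), as was Chuk, encoding the IkB kinase alpha, at 0.26 (edgeR FDR = 3.28e-05).

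Pidd1, a p53-inducible gene whose product links DNA damage to the IkB kinase regulator NEMO, had the strongest NCS response among the named pathway genes in wild-type MEFs. It went from 605.6 ± 54.3 to 1409 ± 68.7 normalized counts (SD, n = 3 each), and the log2 fold change was 1.22 (edgeR FDR = 5.79e-13). In untreated 3KR MEFs Pidd1 was lower than in wild-type MEFs, at -0.49 (edgeR FDR = 3.58e-06), and Atm, the kinase that senses double-strand breaks, was higher at 0.34 (edgeR FDR = 0.00012). The ligand gene Tnf was low, at 9.91 ± 3.75 normalized counts in untreated wild-type and 31.1 ± 18.4 in untreated 3KR MEFs (SD, n = 3 each), with a log2 fold change of 1.63 (edgeR FDR = 0.00325). Without 3KR untreated replicate 2 it was 1.05 (edgeR FDR = 0.063, range 5.93e-05 to 0.063 over 12 alternatives). Tnfsf11, encoding RANKL, was higher at 0.60 (edgeR FDR = 5.18e-07). Rel and Nfkbie, named from the other subunit and IkB genes of the list, did not pass between untreated genotypes, at -0.21 (edgeR FDR = 0.106) and 0.22 (edgeR FDR = 0.0733). Rel passed without wild-type untreated replicate 2 (edgeR FDR = 0.0427, range 0.0427 to 0.312 over 13 alternatives), and Nfkbie without wild-type untreated replicate 1 or 3KR untreated replicate 2 (edgeR FDR = 0.0291 and 0.0192, range 0.0192 to 0.292). With NCS in wild-type MEFs, Rel, Tnfsf11 and Tnf did not pass, at -0.16, 0.09 and 0.29 (edgeR FDR = 0.301, 0.474 and 0.737), Nkiras2 was at -0.13 (edgeR FDR = 0.157) and Parp1 was lower at -0.17 (edgeR FDR = 0.000842).

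Of 45 listed target genes of NF-kappaB, 43 were in the files and 37 were tested. Some of them, such as Zc3h12a and Tnip1, are also in the pathway list, so the counts of these lists overlap. NCS left 14 of the 37 higher and 0 lower by edgeR in wild-type MEFs, where 5 were lower at an unadjusted p under 0.05 and 0 by DESeq2, beside 14.3% of all tested genes higher and 12.4% lower. In 3KR MEFs 18 were higher and 2 lower, Vcam1 and Tnip1, named after their values were seen, beside 15.8% and 15.0%. Between genotypes, 16 were higher and 11 lower without treatment, beside 22.1% and 23.6%, and 18 higher and 10 lower after NCS, beside 22.9% and 23.6%. The median log2 fold changes were 0.11, 0.20, 0.10 and 0.16. The chemokine gene Ccl7 had 768.0 ± 49.3 normalized counts in untreated wild-type and 2341 ± 22.8 in untreated 3KR MEFs (SD, n = 3 each), and the log2 fold change was 1.60 (edgeR FDR = 9.75e-17). Lif, a cytokine of the interleukin 6 family, was higher with NCS in wild-type MEFs, with a log2 fold change of 0.83 (edgeR FDR = 6.75e-10). The adhesion gene Selp was lower in untreated 3KR MEFs at -2.65 (edgeR FDR = 4.19e-14), as was Ptgs2, which encodes the prostaglandin synthase COX-2, at -1.55 (edgeR FDR = 6.11e-16). The neutrophil chemokine gene Cxcl5 had the largest difference of the named targets, at 3.98 on the log2 scale (edgeR FDR = 1.04e-23), and the matrix gene Tnc was higher at 0.63 (edgeR FDR = 1.40e-17). Irf1 was higher at 0.40, while Ier3 and Zfp36, whose product destabilises cytokine mRNAs, were lower at -0.68 and -0.29 on the log2 scale. With NCS in wild-type MEFs the cytokine gene Csf1 rose by 0.43, the urokinase gene Plau by 0.33, Zc3h12a by 0.42, Junb by 0.25 and Tnc by 0.09 on the log2 scale, each past the edgeR threshold.

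A few of these targets responded differently by genotype. The difference in response was higher in 3KR MEFs for Il6, Ptgs2, Ier3, Zfp36 and Junb, at 0.98, 0.51, 0.36, 0.35 and 0.28 on the log2 scale, and lower for Vcam1 at -0.23, all named after their values were seen, beside 1.86% of all tested genes higher and 1.87% lower. Without 3KR untreated replicate 1 the edgeR FDR of Ier3 was 0.0501 (range 1.65e-05 to 0.0501 over 18 alternatives). Junb lost its call in 3 and Vcam1 in 7 of the 12 fits without a library (edgeR FDR up to 0.0735 and 0.0972). With the replicate as a block 10 targets were called, 8 higher and 2 lower. Without wild-type replicate 3 of both treatments 11 were called, 7 higher and 4 lower. Bcl2l1 and Gadd45b, which restrain cell death, had NCS log2 fold changes of 0.49 (edgeR FDR = 3.66e-09) and 0.36 (edgeR FDR = 3.18e-08) in wild-type MEFs. The interferon response, read from 14 listed genes, was higher in 3KR MEFs for all 14 by edgeR in both treatments, beside 22.1% and 22.9% of all tested genes, with medians of 2.12 untreated and 1.54 after NCS. NCS left 1 of these 14 higher (0 to 3 over the 13 alternatives) and 1 lower in wild-type MEFs, beside 14.3% and 12.4% of all tested genes. In 3KR MEFs 7 were lower (6 to 10 over the 12 alternatives), beside 15.0% of all tested genes. By edgeR 4 of the 14 had a lower response in 3KR than in wild-type MEFs, beside 1.87%. That count was 2 without wild-type NCS replicate 1 and 2 to 7 over the 18 alternatives.

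Markers of other cells moved with genotype as well. Schwann and neural crest markers, 8 in all, summed to 8714 ± 130 normalized counts in untreated wild-type and 1820 ± 17.5 in untreated 3KR MEFs (SD, n = 3 each), with Ngfr the most abundant and 6 of 8 lower by edgeR, beside 23.6% of all tested genes. Endothelial markers summed to 3994 ± 105 and 6998 ± 107 (SD, n = 3 each). Flt1 held most of that and was higher, while Emcn and Esam were lower and 1 of the 8 was at or under 3 counts in every sample. Epithelial markers summed to only 96.5 ± 1.21 and 118.5 ± 4.78 (SD, n = 3 each), with Krt18 the most abundant and lower, Cdh1 and Krt8 higher, and 1 of 6 at or under 3 counts in every sample. The part of these cells in the genotype differences above was not tested.

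For each of the 10 genes the tested genes with the most similar pattern over the 12 samples were found by the Pearson correlation of log2 CPM on the same TMM-scaled totals, as a description. The samples fall into 4 groups, and samples of a group share its mean. Tnfaip3 was most like Cux1 and Ubash3b, both at 0.991. Bcl3 was most like Nfatc1 at 0.991 and Mcm5 at 0.987, and Icam1 was most like Snai1 at 0.988 and Dnajc9 at 0.986. For Nfkb1 these were Cad and Hdgf, both at 0.989, and for Nfkb2 they were Gaa at 0.979 and Serpinf1 at 0.976. Nfkbiz lay closest to Leng8 at 0.981 and Adamts6 at 0.977. Nfkbia lay closest to Irf1, an NF-kappaB and interferon target, at 0.965 and to Rgs10 at 0.961. The values were 0.97 for Anp32a and 0.968 for Hnrnpm with Birc3, and 0.955 for both Shroom4 and Atxn1 with Rela. Relb reached only 0.824 with Gm20712 and 0.817 with Gm6969. Among the 10 genes themselves, Rela and Nfkbiz were the most alike, at 0.952.

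The promoter sequences of the genes were read from RefSeq windows of 300 bases on GRCm38.p6, which were given for 7 of the 10 genes in 10 windows (Nfkb2, Rela, Nfkbia, Bcl3, Tnfaip3, Birc3 and Icam1). Motifs were searched on both strands. The kappaB consensus, by its name, was found in 6 of the 10 windows (those of Nfkb2, Nfkbia, Bcl3 and Tnfaip3 held it), and in 8.46% of 32817 windows of the same length. The core GGANTTTCC, whose matches can lie within those of the consensus, was found in 5 of the 10, of Nfkb2, Nfkbia, Tnfaip3 and Icam1, against 1.26% of all windows. The looser GGNNNTTCC, which overlaps both, was found in 8 of the 10, against 18.5%. A pair of the 3 windows of Nfkb2 overlaps, and the same site lies in both. It matches the consensus, GGANTTTCC and GGNNNTTCC, and is counted in each window. Neither the consensus nor these cores were found for Rela and Birc3. The E2F motif TTTNNCGC was found in 0 of the 10 windows, against 5.16% of all windows, and TATAAA in 3, of Nfkbia, Tnfaip3 and Icam1, against 13.6%. A match describes letters only.

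The 200 bases before the start are shown for the 4 of the 7 genes that held a match in them, chosen after the matches were seen, from the first listed window where a gene had several. They run 5′ to 3′ on the strand of the gene, with matches to the kappaB consensus or to GGANTTTCC on either strand in capitals, joined where they overlap. Nfkb2 and Icam1 lie on the plus strand at chr19:46304537-46304736 and chr9:21015740-21015939, and Nfkbia and Tnfaip3 on the minus strand at chr12:55492648-55492847 and chr10:19015411-19015610.
Nfkb2: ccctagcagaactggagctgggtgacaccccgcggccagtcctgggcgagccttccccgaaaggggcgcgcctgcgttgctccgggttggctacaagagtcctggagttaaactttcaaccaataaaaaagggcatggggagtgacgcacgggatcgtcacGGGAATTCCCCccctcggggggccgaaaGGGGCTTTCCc
Nfkbia: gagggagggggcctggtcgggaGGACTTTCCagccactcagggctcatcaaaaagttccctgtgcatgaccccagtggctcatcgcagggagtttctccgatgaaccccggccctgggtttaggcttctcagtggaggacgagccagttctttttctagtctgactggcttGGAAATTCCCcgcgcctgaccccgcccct
Tnfaip3: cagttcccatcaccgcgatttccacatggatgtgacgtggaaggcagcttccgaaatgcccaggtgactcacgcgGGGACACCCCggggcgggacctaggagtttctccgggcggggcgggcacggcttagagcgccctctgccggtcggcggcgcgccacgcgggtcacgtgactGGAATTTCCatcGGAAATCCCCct
Icam1: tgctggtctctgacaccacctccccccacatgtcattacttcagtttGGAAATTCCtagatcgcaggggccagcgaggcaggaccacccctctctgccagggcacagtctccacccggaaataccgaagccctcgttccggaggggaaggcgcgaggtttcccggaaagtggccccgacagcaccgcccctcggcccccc

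In these stretches Icam1, which responded to NCS in both genotypes, held a single match at bases -153 to -145 from its start. Tnfaip3, lower in 3KR MEFs, held matches at -125 to -116, -24 to -16 and -12 to -3. Nfkbia held them at -178 to -170 and -29 to -20, and Nfkb2 at -39 to -29 and -11 to -2. The match of Bcl3 lay just after its start, at bases 3 to 12, and read GGGAAGTCCC.

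Counting limits apply to a pair of the genes. Nfkb2 (ENSMUSG00000025225, chromosome 19) shares 299 exonic bases with Psd on the opposite strand, and Bcl3 (ENSMUSG00000053175, chromosome 7) shares 161 with the antisense gene Gm16175, by GENCODE M21. Libraries were stranded, but the strand setting of the counting is not given in the sources used here, so reads from such overlaps cannot be told apart. The other genes were counted as ENSMUSG00000028163 (Nfkb1, chromosome 3), ENSMUSG00000024927 (Rela, chromosome 19), ENSMUSG00000002983 (Relb, chromosome 7), ENSMUSG00000021025 (Nfkbia, chromosome 12), ENSMUSG00000035356 (Nfkbiz, chromosome 16), ENSMUSG00000019850 (Tnfaip3, chromosome 10), ENSMUSG00000032000 (Birc3, chromosome 9) and ENSMUSG00000037405 (Icam1, chromosome 9).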

How the data were processed

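For each of the 12 samples the authors deposited raw counts, the number of reads assigned to each mouse gene. The submitters' processing notes name TopHat, HTSeq, DESeq and build mm9, without versions, and the libraries were stranded mRNA libraries. The annotation release and the strand setting of the counting are not given in the sources used here. Symbols came from a table of gene identifiers, and chromosomes and exon lengths from GENCODE M21, which holds 32938 of the 37991 identifiers and rests on another build than the counts. Coordinates are given only for the promoter sequences, on GRCm38.p6.

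Counts were tested with edgeR 4.0.16 in R 4.3.3 (TMM, filterByExpr, quasi-likelihood F test, two-sided, 1 coefficient per group, all 12 samples), with Benjamini-Hochberg adjustment over 15327 genes and a threshold of 0.05. Normalized counts used the size factors of DESeq2 1.42.0. The common coefficient of variation was 3.95%. Intervals are approximate 95% intervals, the estimate plus or minus the SE times the normal quantile, with the SE taken from the F statistic. They can be narrower than the edgeR test implies. Intervals and counting floors cover only the error of the fit or of counting. The test was checked on simulated counts of 15081 genes. For the difference in response edgeR recovered 67 of 100 genes changed by 0.5 and 90 of 100 changed by 1 on the log2 scale, with 7 false calls. Every simulated gene had the same spread, no replicate stood apart, and fewer genes changed than were called in the real data. These rates may therefore not hold for the real samples. Alternatives were DESeq2 size factors, the DESeq2 Wald test, no filter, a filter of 10 counts or more in each sample, a fit of the compared samples alone, the replicate as a block, each replicate left out and, added later, wild-type replicate 3 left out of both treatments.

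Members and lists were chosen with earlier results of these data known. All 10 genes are named, with, per role of the pathway and target lists, candidates of lowest unadjusted p for untreated genotype and for NCS in wild-type MEFs, and the nearest genes by correlation. Other genes named beside a count or as markers were chosen after their values were seen.

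The labels number the replicates in each group. Over 9602 genes, deviations from the group means of same-numbered untreated and NCS-treated samples correlated at 0.267, 0.234 and 0.468 in wild-type MEFs, all above 0.1, so the numbers were taken as pairs there. The pairing comes from the data alone and rests on replicate 3, which stood apart in both treatments. Since deviations are taken from group means, this also makes replicates 1 and 2 alike. They also correlated crosswise, at 0.223 and 0.236, so the check cannot tell which of their samples are partners.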

Additional observations from a re-analysis of the deposited data

Results flagged for a closer look

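The response to NCS differed between the genotypes for Nfkbiz by 0.62 on the log2 scale, 3KR minus wild-type (SE 0.0734, edgeR FDR = 1.29e-05), as tested by the difference itself. Normalized counts went from 1321 ± 86.7 to 1653 ± 53.8 in wild-type MEFs and from 976.4 ± 17.6 to 1881 ± 96.7 in 3KR MEFs (SD, n = 3 each), so that the order of the genotypes was turned by the treatment.

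For Bcl3 the same test gave 0.34 (SE 0.0867, edgeR FDR = 0.0279), with normalized counts from 488.8 ± 14.3 to 563.0 ± 38.7 in wild-type MEFs and from 800.9 ± 42.4 to 1160 ± 39.2 in 3KR MEFs (SD, n = 3 each). Its edgeR FDR was above 0.05 in 7 of the 12 fits that left out a library, up to 0.0894. Sex and genotype cannot be told apart in these samples.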

How the results depend on the processing

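Over the 10 genes and the alternatives of each comparison, 609 log2 fold changes kept their direction and side of the threshold, 51 lost the call in the same direction, 7 gained it and 23 reversed, all 23 of changes that were not called. For 52 log2 fold changes of named pathway and target genes and p53 controls these numbers were 684, 32 and 3, and none of these reversed. Those 52 leave out some named values, such as those of Nfkbib, Nfkbid and Sesn1 with NCS. Of 80 mean normalized counts under other scalings, 72 moved by less than 1 SD. For NCS in wild-type MEFs, 2 of the 10 genes were called with the compared samples alone and 2 to 6 with a library left out, which leaves 2 samples in a group. For the difference in response, 1 to 3 of the 10 genes and 345 to 1159 of all genes were called with a library left out, and all genes numbered 1379 with the replicate block and 1842 without wild-type replicate 3 of both treatments, chosen after seeing the data. Fewer samples entered some of these fits, and otherwise the cause was not tested. The fit of the compared samples alone was not run for the difference, which needs all 4 groups. The floor of 3 counts lay at 0.0663 to 0.0904 CPM.

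Reversed values were those of Birc3 with NCS in wild-type MEFs, at 0 with no filter, -0.012 with 10 counts or more in each sample, -0.014 with the compared samples alone, -0.002 with the replicate block and -0.025 without replicate 3 of both treatments, where Tnfaip3 was at -0.037. With a library left out the ranges were -0.077 to 0.054 for Birc3, -0.076 to 0.085 for Tnfaip3 and -0.052 to 0.006 for Nfkb1. For NCS in 3KR MEFs, Relb was at -0.004 with no filter, -0.001 with the compared samples alone and -0.044 to 0.057 with a library left out, and Birc3 at -0.011 to 0.058. The difference in response ranged from -0.055 to 0.024 for Nfkbia and from -0.023 to 0.106 for Birc3. The cause was not tested.

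Outside the wild-type NCS comparison samples share only a number. Same-numbered 3KR samples correlated at 0.00102, 0.0502 and 0.00241, and not every sample correlated best with its own number. With the replicate block, Icam1 between NCS-treated genotypes had an edgeR FDR of 0.0501 (range 0.0328 to 0.169), Relb passed with NCS in wild-type MEFs, and no other call of the 10 genes changed.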
